A study of Sus scrofa with 12 samples.

Results

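The antioxidant enzymes described here are a set of genes chosen by name. They come from the enzymes that remove superoxide and peroxides in muscle and those that hand them reducing power, with the quinone reductase NQO1. The set named 10 genes, SOD1, SOD2, CAT, PRDX1, PRDX2, PRDX3, PRDX5, TXN, TXNRD1 and NQO1. A row with the same gene name was found for 9 of the 10, out of 23271 genes in the deposited table, and TXN was not analysed here. The choice was by name and applied no rule on expression values, although earlier results of these data were known. Poly(A) RNA was sequenced from frozen longissimus dorsi, a large muscle along the spine, in 6 libraries of Laiwu pigs, a Chinese breed known for fat within the muscle, and 6 of Yorkshire pigs, a lean Western breed, the animals being of equal weight. The sources used here give no treatment, genotype, age or sex for either breed and do not say that each library came from a separate animal, so the p-values reflect only how far these 12 libraries vary.

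Between 54961358 and 67285809 counts were assigned to genes per library, and the 9 enzymes together held 0.0533% to 0.0783% of them. The tissue label was checked against marker genes. The summed level of 8 fast fibre genes was 35354 to 45775 FPKM (fragments scaled by gene length and library size) over the 12 libraries, that of 8 slow fibre genes 715.8 to 3604 FPKM, and that of 10 adipocyte genes 119.6 to 327.3 FPKM. One library stood apart. In Yorkshire 5 the deviation of a gene from its median over libraries followed gene length, with a Spearman's rho of -0.42 across genes, against -0.15 to 0.16 in the other 11 libraries, and values with and without it are given where it touches a result.

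Superoxide leaks from the respiratory chain of working muscle and is turned into hydrogen peroxide by the superoxide dismutases, SOD1 in the cytosol with copper and zinc, SOD2 in the mitochondrial matrix with manganese. Hydrogen peroxide is then split by catalase, mainly in peroxisomes, or reduced by peroxiredoxins, which spend a cysteine thiol on each molecule. Thioredoxin restores that thiol, and thioredoxin reductase restores thioredoxin at the cost of NADPH. NQO1 reduces quinones by 2 electrons at a time, which avoids semiquinones that would pass an electron to oxygen, and it is a classical target of NRF2, the transcription factor of the oxidative stress response.

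The most abundant of these mRNAs by FPKM was that of a mitochondrial enzyme. PRDX3, the peroxiredoxin of the mitochondrial matrix, averaged 89.2 FPKM over the 12 libraries and was first among the 9 in 11 of them. PRDX2, a cytosolic peroxiredoxin known for its abundance in red blood cells, averaged 64.3 FPKM, and SOD2 followed at 55.4 FPKM. PRDX2 and SOD2 did not separate, since PRDX2 was higher in 8 of 12 libraries only. CAT came next in all 12 libraries, at a mean of 34.7 FPKM, and its lowest value, 24.5 FPKM, was above the highest of PRDX1, 14.2 FPKM. Below that gap lay PRDX1 at 11.7, SOD1 at 9.88, TXNRD1 at 9.42, NQO1 at 6.28 and PRDX5 at 5.03 FPKM on average. SOD1 exceeded TXNRD1 in 7 of 12 libraries and NQO1 exceeded PRDX5 in 9 of 12, so the order among these low members was not the same in each library. An FPKM value depends on the gene length behind it. The length implied by counts and FPKM was 3118 bases for SOD1 and 1666 bases for SOD2, and on plain counts SOD2 was also above SOD1 in 12 of 12 libraries. The first place of PRDX3 depended on that scaling, since its implied length was 1703 bases and that of CAT 4794 bases. On plain counts CAT was above PRDX3 in most libraries, as in Laiwu 3 (17018 against 12140). It was below PRDX3 in Yorkshire 3, Yorkshire 4 and Yorkshire 5. CAT, PRDX2 and PRDX5 lie on chromosome 2, far apart, and the deposited annotation places SOD1, SOD2, CAT, PRDX1 and PRDX5 in the peroxisome pathway, 5 of the 81 genes it lists there.

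**Figure D1:**
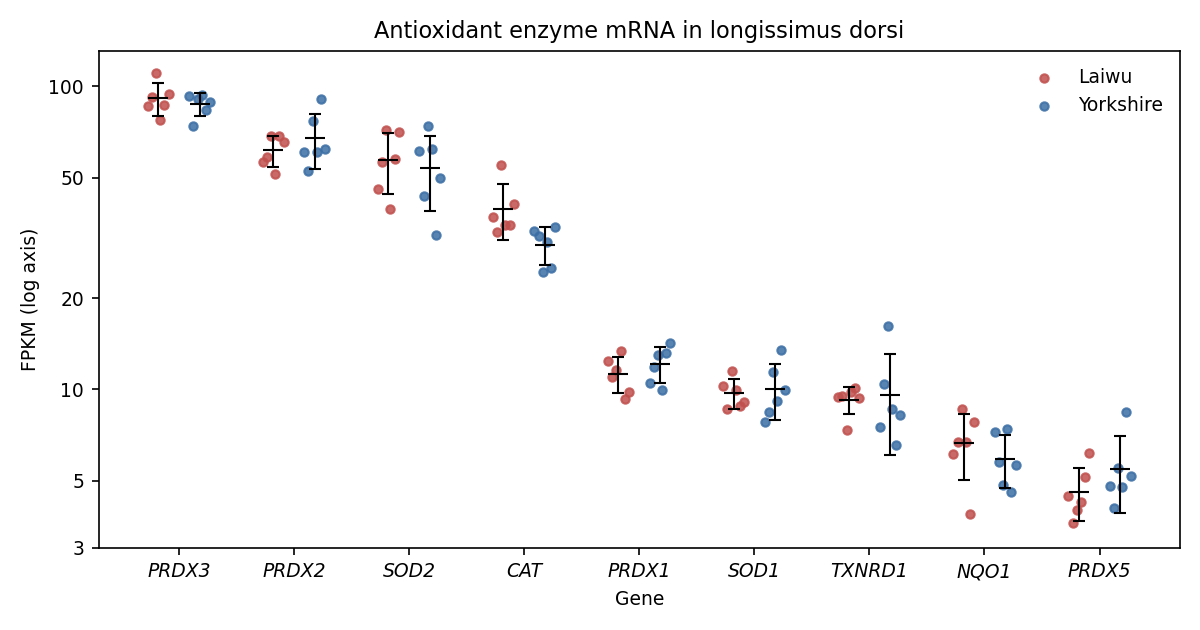
Expression of the 9 enzymes in each library, in FPKM on a log axis, ordered by mean level, with 1 point per library, a horizontal mark at the breed mean and bars of 1 SD (n = 6 libraries per breed). PRDX3 stands highest and PRDX5 lowest, a gap separates CAT from PRDX1, and the breeds overlap for each gene.

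None of the 9 enzymes differed between the breeds by the test across all genes, and CAT came nearest. With p-values adjusted by Benjamini-Hochberg, edgeR's quasi-likelihood fit called 0 of the 9, against 0% of the 11205 genes tested, and the smallest adjusted p of any gene was 0.912. At an unadjusted p under 0.05 it took 1 of the 9, CAT, and 4.44% of all tested genes. The FPKM ranges of the breeds overlapped for each of the 9, whereas 0.178% of all tested genes did not overlap. In Laiwu against Yorkshire, 4 members had fitted values above 0 and 5 below, with a median of -0.05 on the log2 scale, beside -0.0013 over all tested genes.

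CAT encodes catalase, the haem enzyme that splits hydrogen peroxide without needing a reductant. It lies at chromosome 2, 26487653 to 26581452 (ENSSSCG00000013302, Sscrofa11.1). In Laiwu the lowest, median and highest levels were 33.1, 36.0 and 54.98 FPKM, and in Yorkshire 24.5, 31.4 and 34.5 FPKM. All 6 Laiwu libraries were above the Yorkshire median, 5 of them were above the highest Yorkshire library, and 4 Yorkshire libraries were below the lowest Laiwu library. The means were 39.3 ± 8.12 FPKM (SD, n = 6) and 30.0 ± 4.23 FPKM (SD, n = 6). The log2 fold change was 0.36 ± 0.14 (SE), which is 1.28-fold with a 95% interval of 1.04 to 1.58, at an edgeR p of 0.0243 and an adjusted p of 0.912. An exact two-sided permutation test of log2(FPKM + 1), whose smallest possible p is 0.0022, gave 0.0065, and 0.962 adjusted over all tested genes. Laiwu 3 was the highest library, with the next at 40.97 FPKM, and without it the log2 fold change was 0.25 at an edgeR p of 0.0726. Without Yorkshire 3, the library lowest in CAT, it was 0.28 at an edgeR p of 0.0556. ABTB2, on the other strand, overlaps CAT over 32601 bases and averaged 0.371 FPKM.

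The 2 libraries highest in CAT were also the 2 highest in adipocyte markers. The summed adipocyte markers were highest in Laiwu 3 at 327.3 FPKM and Laiwu 6 at 316.7 FPKM, the libraries where CAT stood at 54.98 and 40.97 FPKM. Over all libraries the adipocyte sum ran from 124.1 to 327.3 FPKM among Laiwu and from 119.6 to 188.2 FPKM among Yorkshire, 8 of the 9 tested markers had a fitted fold change above 0, with a median of 0.98 on the log2 scale, and 0 passed the test. Of the 8 slow fibre markers 7 were below 0, with a median log2 fold change of -0.53, and 0 passed. The slow fibre sums of the breeds overlapped. They ran from 715.8 to 2999.8 FPKM among Laiwu (median 2335) and from 1662 to 3604 FPKM among Yorkshire (median 2604). Laiwu 2 is a library of low adipocyte level, 124.1 FPKM, and held 33.1 FPKM of CAT. The order did not hold throughout. Laiwu 5 and Laiwu 4, next in adipocyte sum at 218.1 and 209.2 FPKM, held 35.0 and 34.9 FPKM of CAT. Laiwu 1, at a sum of 175.0 FPKM, held 37.1 FPKM of CAT. The part of fat cells and of fibre type in the CAT values was not tested. In bulk tissue, fewer cells of a type and less RNA per cell cannot be told apart.

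**Figure D2:**
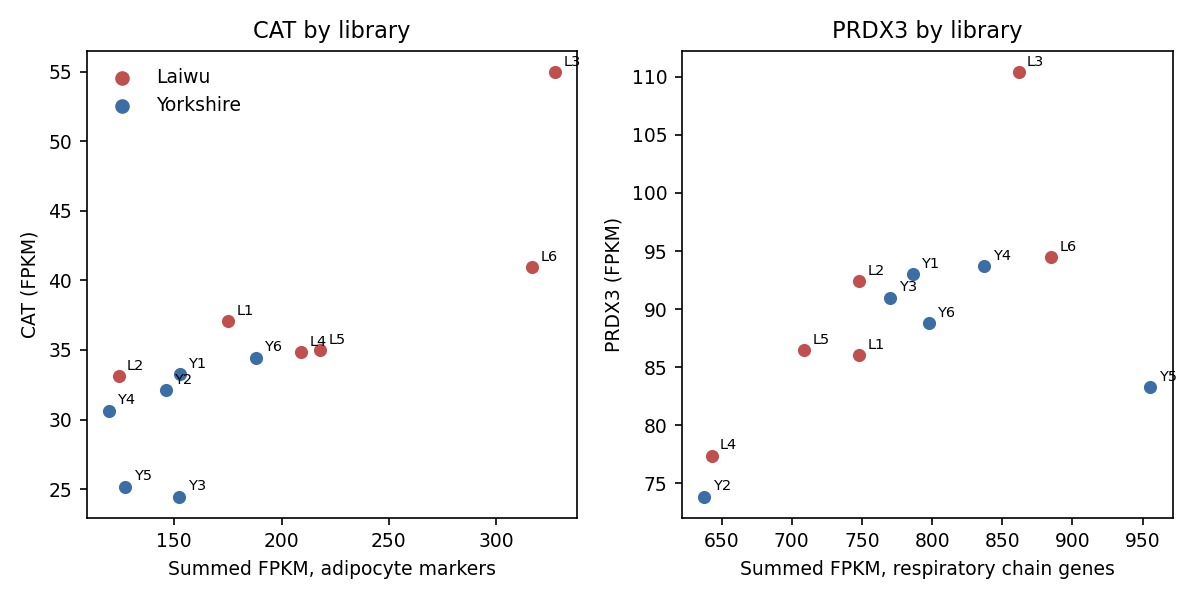
Left, CAT in FPKM against the summed FPKM of 10 adipocyte markers. Right, PRDX3 in FPKM against the summed FPKM of 14 nuclear genes of the respiratory chain. Each point is a library, labelled by breed letter and number. Laiwu 3 is at the upper right on the left panel, and Yorkshire 5 has the highest respiratory chain sum, 955.5 FPKM, with PRDX3 at 83.3 FPKM.

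Neither superoxide dismutase separated the breeds. SOD1 (ENSSSCG00000021355; chromosome 13, 195326649 to 195337729) had lowest, median and highest levels of 8.64, 9.52 and 11.5 FPKM among Laiwu and 7.80, 9.55 and 13.5 FPKM among Yorkshire. The Yorkshire range enclosed the Laiwu range, with Yorkshire 5 at its top. Its log2 fold change was -0.07 ± 0.14 (SE), with an edgeR adjusted p of 0.955, 0.05 without Yorkshire 5, and 0.021 by limma with each library rescaled to an equal total. SCAF4, on the other strand, overlaps SOD1 over 4470 bases, and the sources used here do not say if reads were counted by strand.

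SOD2 (ENSSSCG00000040317; chromosome 1, 7679352 to 7689560) was at 39.5, 57.0 and 71.8 FPKM among Laiwu and at 32.2, 55.5 and 73.99 FPKM among Yorkshire, lowest, median and highest. Yorkshire 5, the library highest in SOD1, was the lowest of all 12 in SOD2. The log2 fold change of SOD2 was 0.07 ± 0.17 (SE), with an edgeR adjusted p of 0.967, and -0.03 without Yorkshire 5. The ratio of SOD2 to SOD1 in FPKM, in which the scaling of a library cancels, had a median of 6.37 in Laiwu and 5.81 in Yorkshire. It was 3.98 or more in Laiwu, while in Yorkshire it was 2.38 in Yorkshire 5 and at least 4.99 in the other 5 libraries.

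The 4 peroxiredoxins differed far more from one another than between breeds. PRDX3 (ENSSSCG00000010682; chromosome 14, 129079051 to 129090830) was at 77.4, 89.4 and 110.4 FPKM among Laiwu and at 73.8, 89.9 and 93.7 FPKM among Yorkshire, lowest, median and highest. It was the steadiest of the 9, with a within-breed SD of 0.12 on the log2 CPM scale (counts scaled to library size), where 2.81% of tested genes varied less and the median gene had 0.29. On the log2 scale the fold change was 0.04 ± 0.09 (SE), with an edgeR adjusted p of 0.963, and -0.0089 without Laiwu 3. The 95% interval of the fold, 0.902 to 1.18, was the narrowest of the set.

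PRDX2 (ENSSSCG00000013736; chromosome 2, 66207829 to 66212009) was at 51.3, 61.9 and 68.6 FPKM among Laiwu and at 52.5, 61.4 and 90.8 FPKM among Yorkshire. The medians lay close together and Yorkshire 5 was the highest library. The log2 fold change was -0.16 ± 0.13 (SE), with an edgeR adjusted p of 0.912, and -0.03 without Yorkshire 5. Red blood cell genes were low in these samples. Of 9 erythroid markers 4 were listed, at a summed level of 3.80 to 14.6 FPKM among Laiwu and 3.30 to 14.2 FPKM among Yorkshire, and HBM, ALAS2 and EPB42 had no count in at least 1 library. The part of blood in the PRDX2 values was not tested.

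PRDX1, the other cytosolic member (ENSSSCG00000003914; chromosome 6, 165824395 to 165861442), was at 9.31, 11.3 and 13.4 FPKM among Laiwu and at 9.91, 12.4 and 14.2 FPKM among Yorkshire. The ranges lay almost on each other. The fitted log2 fold change was -0.13 ± 0.14 (SE), with an edgeR adjusted p of 0.919. AKR1A1 and MMACHC, both on the other strand, overlap PRDX1 over 363 and 658 bases. The ratio of the matrix enzyme PRDX3 to the cytosolic PRDX1 had a median of 8.84 in Laiwu (5.79 to 9.61) and 6.65 in Yorkshire (6.23 to 9.45), so the breeds overlapped there too.

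PRDX5, a peroxiredoxin that is found in mitochondria, peroxisomes and cytosol (ENSSSCG00000013030; chromosome 2, 7798670 to 7802952), was the lowest member. It was at 3.62, 4.35 and 6.15 FPKM among Laiwu and at 4.05, 4.99 and 8.44 FPKM among Yorkshire. Yorkshire 5 was the highest, and 5 of 6 Yorkshire libraries were above the Laiwu median. The log2 fold change was -0.28 ± 0.19 (SE), with an edgeR adjusted p of 0.912, and -0.08 without Yorkshire 5. The 95% interval of the fold, 0.626 to 1.09, reached the lowest value of the 9. TRMT112, on the other strand, overlaps PRDX5 over 678 bases and averaged 12.1 FPKM.

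The reductases TXNRD1 and NQO1 were among the lower members of the set. Their within-breed SDs were 0.32 and 0.34 on the log2 CPM scale, beside 0.32 for SOD2, 0.33 for PRDX5 and 0.29 for the median gene. TXNRD1, the cytosolic thioredoxin reductase and a selenoprotein (ENSSSCG00000000843; chromosome 5, 80179635 to 80236219), was at 7.33, 9.45 and 10.1 FPKM among Laiwu and at 6.54, 8.42 and 16.2 FPKM among Yorkshire. The Laiwu libraries sat closer together than the Yorkshire ones, with an SD of 0.20 against 0.40 on the log2 CPM scale, and Yorkshire 3 was the highest. The log2 fold change was -0.05 ± 0.17 (SE), with an edgeR adjusted p of 0.977, 0.10 without Yorkshire 3, 0.012 without Laiwu 3, and 0.055 by limma with each library rescaled to an equal total. The difference in spread was not tested.

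NQO1 (ENSSSCG00000002754; chromosome 6, 17292770 to 17302590) was at 3.88, 6.71 and 8.64 FPKM among Laiwu and at 4.58, 5.70 and 7.39 FPKM among Yorkshire. In 5 of 6 Laiwu libraries it was above the Yorkshire median, and the exception, Laiwu 5, was the lowest of all 12. Its log2 fold change was 0.15 ± 0.18 (SE), with an edgeR adjusted p of 0.921, and 0.26 without Laiwu 5. NQO1 had the widest within-breed SD of the 9, 0.34 on the log2 CPM scale.

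**Figure D3:**
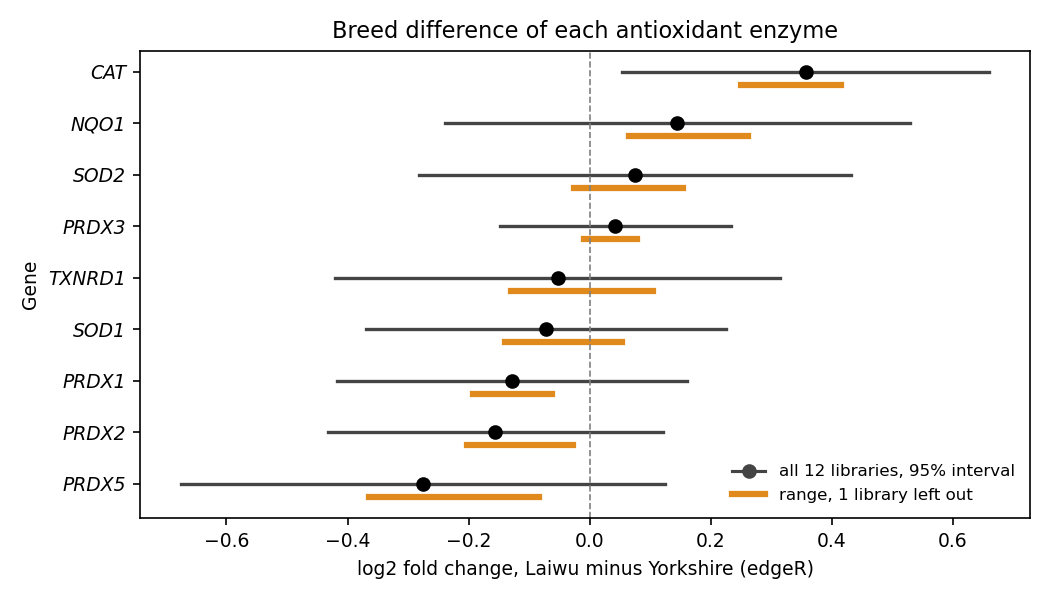
Log2 fold change of each enzyme, Laiwu minus Yorkshire, from edgeR (points) with its 95% interval (dark lines) and the range when 1 library is left out (orange lines). The interval of CAT, 0.05 to 0.66, is the only one that does not include 0, before any adjustment over genes, and the left-out range crosses 0 for SOD1, SOD2, PRDX3 and TXNRD1.

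The correlations between the enzymes had both signs, and several moved with 1 library. Of the 36 pairs, 16 had a Pearson's r above 0 over the 12 libraries on log2 CPM, and the median r was -0.09. PRDX2 with PRDX5 was the closest pair, at 0.82, and 0.42 without Yorkshire 5. SOD1 with PRDX2 went from 0.69 to 0.16 without that library, whereas SOD1 with PRDX1 stood at 0.67 and 0.64. SOD2 with PRDX2 went from -0.28 to 0.72 without Yorkshire 5, the highest value of any pair then, and SOD1 with PRDX5 from 0.57 to -0.08. At the other end, PRDX3 with TXNRD1 was at -0.70, and -0.77 without Yorkshire 5, and SOD2 with PRDX1 at -0.69 and -0.65. These values describe 12 libraries of 2 breeds and share the scaling of each library.

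Wide departures from a gene's own mean on the log2 CPM scale came from several libraries. NQO1 in Laiwu 5 was at -0.68, PRDX5 in Laiwu 2 at -0.44 and SOD2 in Laiwu 4 at -0.42. In Yorkshire 5, PRDX5 was 0.87 above its mean, PRDX2 0.60 and SOD1 0.56 above theirs, and SOD2 was at -0.65. In Laiwu 3, CAT was 0.62 above its mean and NQO1 0.42 above, and TXNRD1 was at -0.40. In Yorkshire 3, TXNRD1 was 0.67 above its mean while CAT was at -0.63 and NQO1 at -0.50. Macrophage markers summed to 36.7 FPKM in Yorkshire 3, against 14.1 to 23.1 FPKM in the other Yorkshire libraries and 42.4 FPKM in Laiwu 4, and their part in these values was not tested.

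**Figure D4:**
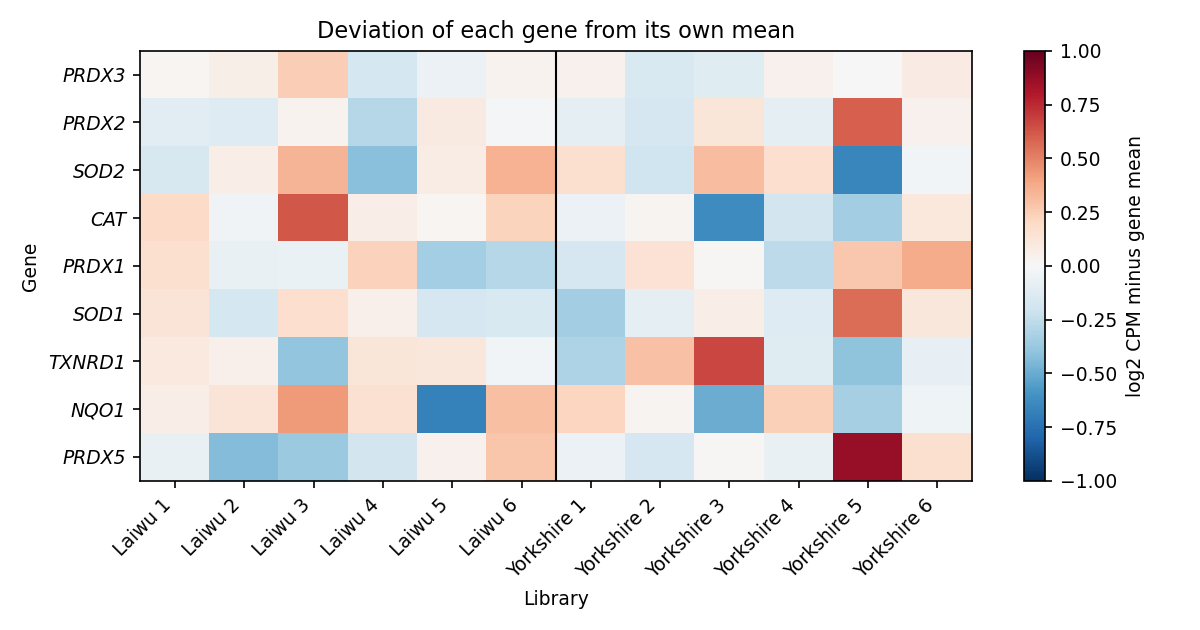
Log2 CPM of each enzyme in each library minus the mean of that gene over the 12 libraries, with Laiwu left of the black line and Yorkshire right of it. Red is above and blue below the gene's mean. Yorkshire 5 is above for PRDX5, PRDX2 and SOD1 and below for SOD2, and CAT and TXNRD1 lie on opposite sides in Laiwu 3 and in Yorkshire 3.

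A total of 4 pairs of known partners were examined over the 12 libraries, and none passed a permutation test adjusted over the 4. SOD2 with PRDX3, both of the mitochondrial matrix, had an r of 0.45 (permutation p = 0.147, adjusted p = 0.293) and a rho of 0.45 (permutation p = 0.148). Within breeds r was 0.78 in Laiwu (exact p = 0.0667) and 0.03 in Yorkshire (exact p = 0.965), and 0.40 without Laiwu 4 and Yorkshire 5, the libraries farthest from the median of SOD2. On log2(FPKM + 1), without the TMM scaling used for log2 CPM, r was 0.75 (permutation p = 0.0047, adjusted p = 0.0188), so the relation depended on how libraries were scaled. Without Yorkshire 5, a choice made after seeing the data, r was 0.58 (permutation p = 0.0627, adjusted p = 0.125). NQO1 with TXNRD1, both NRF2 targets, had an r of -0.45 (permutation p = 0.142, adjusted p = 0.293) and a rho of -0.43 (permutation p = 0.162). Within breeds r was -0.57 in Laiwu (exact p = 0.181) and -0.47 in Yorkshire (exact p = 0.336). It was -0.01 without Laiwu 5 and Yorkshire 3, the libraries farthest from the median of NQO1, so r depended on the libraries used. Without Yorkshire 5 alone it was -0.67 (permutation p = 0.0262, adjusted p = 0.105), with a rho of -0.69 (permutation p = 0.0229, adjusted p = 0.0916).

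The remaining relations changed sign with the libraries used. SOD1 with CAT, which act one after the other, had an r of -0.10 (permutation p = 0.740, adjusted p = 0.740) and a rho of 0.19 (permutation p = 0.558). Within breeds r was 0.68 in Laiwu (exact p = 0.0875) and -0.37 in Yorkshire (exact p = 0.471), and it was 0.25 without Yorkshire 1 and Yorkshire 5. PRDX1 with PRDX2, the cytosolic pair, had an r of 0.17 (permutation p = 0.636, adjusted p = 0.740) and a rho of -0.01 (permutation p = 0.974). Within breeds r was -0.84 in Laiwu (exact p = 0.0417, adjusted p = 0.117) and 0.50 in Yorkshire (exact p = 0.328), and it was 0.25 without Laiwu 5 and Yorkshire 6.

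The gene whose profile was most like that of each enzyme was sought among 4240 other named genes of at least 5 FPKM, by Pearson's r of log2 CPM over the 12 libraries, as a description. For PRDX3 it was ATP5F1A, the alpha subunit of mitochondrial ATP synthase, at 0.96, which was also the nearest without Yorkshire 5, at 0.96. For CAT it was CALCOCO1, at 0.95 with all libraries and 0.96 without Yorkshire 5, again the nearest in both. For the other 7 the nearest gene changed when Yorkshire 5 was left out. It went from HNRNPD to AIMP1 for SOD1, from RB1CC1 to ISOC1 for SOD2 and from DNAJC5 to TMEM127 for PRDX2. For PRDX1 it went from NIT1 to RPS15, for PRDX5 from CDK9 to ZNF703, for TXNRD1 from SRSF10 to SFT2D1 and for NQO1 from CYS1 to ECHDC2.

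The mRNAs of nuclear genes of oxidative phosphorylation were set beside those of the mitochondrial enzymes. The amount of respiratory chain protein was not measured. The summed level of 14 of these nuclear genes was 643.0 to 885.0 FPKM among Laiwu and 637.8 to 955.5 FPKM among Yorkshire, and 0 passed the test. Yorkshire 2 and Laiwu 4, the lowest in that sum at 637.8 and 643.0 FPKM, were also the lowest in PRDX3, at 73.8 and 77.4 FPKM. In Yorkshire 5, the library whose deviations followed gene length, the sum was the highest of all. PRDX3 was at 83.3 and SOD2 at 32.2 FPKM there. On the log2 CPM scale PRDX3 lay close to its own mean in that library, at -0.0064, and SOD2 was at -0.65.

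Around these enzymes, 64 further redox genes were listed by role, of which 58 were in the table and 51 were tested. edgeR called 0 of the 51, 26 lay above 0 and 25 below in the fit, and the median log2 fold change was 0.0049. An unadjusted p under 0.05 was reached by 4 of the 51, where the share over all tested genes was 4.44%.

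Thioredoxin and peroxiredoxin genes outside the set had 6 of 12 above 0 and a median of -0.01. The most abundant, TXNIP, which encodes the protein that binds and inhibits thioredoxin, was at 265.2 ± 77.7 FPKM among Laiwu and 213.0 ± 80.3 FPKM among Yorkshire (SD, n = 6 each), above each of the 9 enzymes. PRDX6, a peroxiredoxin with a single active cysteine, was at 64.2 ± 3.20 and 67.1 ± 9.77 FPKM, a level like that of PRDX2. SESN1, a stress-induced sestrin, was at 52.5 ± 7.26 and 41.2 ± 4.74 FPKM, with a log2 fold change of 0.33 ± 0.10 (SE), at an edgeR p of 0.0044, adjusted 0.912.

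In the glutathione system, which removes peroxides in parallel with the peroxiredoxins, 6 of 14 tested genes were above 0, with a median of -0.02. GPX1, the cytosolic glutathione peroxidase, was at 38.5 ± 11.6 FPKM among Laiwu and 49.8 ± 15.3 FPKM among Yorkshire (SD, n = 6 each). GPX3, the secreted form, was at 44.2 ± 19.8 and 40.6 ± 14.0 FPKM, and GCLM, the regulatory subunit of the ligase that begins glutathione synthesis, at 25.9 ± 3.71 and 22.97 ± 4.41 FPKM. MGST1, a membrane glutathione transferase named after its values were seen, was at 2.17 ± 1.03 and 1.12 ± 0.31 FPKM. On the log2 scale its fold change was 0.93 ± 0.26 (SE), with an edgeR p of 0.0034, adjusted 0.912.

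The partners of the superoxide dismutases were low. SOD3, the extracellular form, was at 3.83 ± 1.04 FPKM among Laiwu and 3.67 ± 1.17 FPKM among Yorkshire (SD, n = 6 each), and CCS, the chaperone that loads copper into SOD1, at 3.77 ± 0.551 and 4.40 ± 0.655 FPKM. Of the methionine sulfoxide reductases, which repair oxidised methionine, 2 of 4 were above 0 with a median of -0.01. MSRB3 led them at 40.2 ± 6.37 and 41.9 ± 11.1 FPKM, ahead of the selenoprotein MSRB1 at 8.28 ± 1.51 and 9.87 ± 1.01 FPKM and of MSRB2 at 1.34 ± 0.462 and 1.20 ± 0.531 FPKM.

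Of the regulators of NRF2, 5 of 7 were above 0 with a median of 0.07. SQSTM1, the autophagy receptor that can draw KEAP1 away from NRF2, was at 186.6 ± 66.2 FPKM among Laiwu and 182.9 ± 59.9 FPKM among Yorkshire (SD, n = 6 each). KEAP1, the adaptor that marks NRF2 for degradation, was at 38.7 ± 3.27 and 39.3 ± 2.13 FPKM, and CUL3, the ubiquitin ligase scaffold it works with, at 22.99 ± 2.10 and 21.7 ± 2.03 FPKM. Of other NRF2 targets, 5 of 9 were above 0 with a median of 0.13. FTL, the light chain of the iron store ferritin, was at 202.9 ± 24.4 and 225.8 ± 52.0 FPKM. TALDO1, of the pentose phosphate pathway, was at 24.98 ± 2.23 and 27.0 ± 3.49 FPKM, and the NADPH-forming malic enzyme ME1 at 11.6 ± 2.93 and 9.20 ± 2.47 FPKM. TKT, a pentose phosphate enzyme named after its values were seen, was at 6.25 ± 0.92 and 4.61 ± 0.667 FPKM. The fitted log2 fold change was 0.41 ± 0.13 (SE), with an edgeR p of 0.0071, adjusted 0.912.

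The list of 10 genes for sources of superoxide or hydrogen peroxide did not include the respiratory chain. CYBB and MAOA were not found by name, and the listed genes that were found were low. Only 3 of the 8 in the table reached the minimum for testing, and 1 of the 3 was above 0. MAOB, a monoamine oxidase of the outer mitochondrial membrane, was at 3.23 ± 1.65 FPKM among Laiwu and 3.28 ± 1.32 FPKM among Yorkshire (SD, n = 6 each). CYBA, a subunit of the NADPH oxidase of phagocytes and other cells, was at 1.89 ± 0.621 and 2.77 ± 1.67 FPKM, with its highest value, 6.09 FPKM, in Yorkshire 3. AOX1, an aldehyde oxidase, was at 1.86 ± 0.967 and 0.929 ± 0.214 FPKM. On the log2 scale the fold change was 0.96 ± 0.31 (SE), with an edgeR p of 0.0085, adjusted 0.912.

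Laiwu 3, the library highest in adipocyte markers, also bore on SESN1, MGST1 and AOX1. Without it their log2 fold changes were 0.26, 0.67 and 0.72, the lowest values when any 1 library was left out. Their edgeR p was then 0.0113, 0.0095 and 0.0256, unadjusted, and that of CAT 0.0726. TKT was at 0.36 without Laiwu 3 (edgeR p 0.02, unadjusted), and its lowest value, 0.35, came without Yorkshire 3. The part of fat cells in the values of these genes was not tested. On log2(FPKM + 1) by limma, with all libraries, the log2 fold changes of MGST1 and AOX1 were 0.54 and 0.50.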

How the data were processed

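Reads of 12 libraries were filtered after FastQC and aligned with HISAT2 2.2.1 to Sscrofa11.1, per the series' design text. Other tools in the submitters' processing notes, listed with no role, are StringTie 1.3.4d, cutadapt 1.9, edgeR and DESeq2. The sources used here do not state the annotation, counting tool or strand setting. The authors deposited a raw count and an FPKM value per gene and library, per the file headers. The kit marks strand with dUTP, per the labels' protocols.

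The 11205 genes averaging 0.5 FPKM or more were tested with edgeR 4.0.16 (quasi-likelihood, TMM, robust, no covariate), with Benjamini-Hochberg adjustment over all of them and a threshold of 0.05. SE was the fold change over the root of F, and the 95% intervals from that SE and the test's degrees of freedom. All 9 members passed the minimum of 0.5 FPKM. limma 3.58.1, DESeq2 1.42.0, other scalings and filters, a replicate block and leaving out each library were alternatives. Correlations used 100000 resamples over 12 libraries and all pairings within a breed. The length of a gene was derived from its count, its FPKM and the library total. Redox genes were named by a rule, the 3 of highest mean FPKM in each list. The members and lists were chosen with earlier results of these data known. Same-numbered libraries of the breeds were checked for shared deviations, and no paired fit is used as a main result. R 4.3.3 and Python 3.11.15 with matplotlib 3.10.9 were used.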

Additional observations from a re-analysis of the deposited data

Results flagged for a closer look

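In a group of 6 libraries, a value was picked out when its gap to the nearest other value, as a share of the group's range, exceeded Dixon's 95% critical value. Of 62 groups (31 genes in each breed) 6 were picked out. Chance picks about 1 in 20 of independent, normally distributed groups, whereas these groups share libraries, so the count was not tested against that rate. Among the enzymes, CAT in Laiwu 3 stood at 54.98 FPKM with the next Laiwu value at 40.97 FPKM. PRDX5 in Yorkshire 5 stood at 8.44 FPKM with the next at 5.51 FPKM. TXNRD1 in Laiwu 3 was low, at 7.33 FPKM, with the nearest at 9.35 FPKM. Of the other redox genes, GCLM stood at 31.7 FPKM and CYBA at 6.09 FPKM in Yorkshire 3, with the nearest values at 22.9 and 2.74 FPKM, and MSRB3 at 52.2 FPKM in Laiwu 2, with the nearest at 41.3 FPKM.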

How the results depend on the processing

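Over 23 alternatives, 12 of them leaving out 1 library, the count of genes called stayed at 0 except by DESeq2, which called 1 gene, no member. At an unadjusted p under 0.05 the count was 498 by edgeR, 569 by DESeq2, 391 by limma on log2(FPKM + 1), 1715 with no low-count filter, 281 without Laiwu 3 and 293 without Yorkshire 5. Members kept their side of the threshold in all 207 fits, the smallest adjusted p being 0.499, and 12 of those fits changed a sign. CAT, PRDX1, PRDX2, PRDX5 and NQO1 kept their sign throughout, CAT between 0.25 and 0.43. With 1 library left out, SOD1 ran from -0.14 to 0.053, SOD2 from -0.026 to 0.15, PRDX3 from -0.0089 to 0.079 and TXNRD1 from -0.13 to 0.10. By voom with library weights SOD1, SOD2 and TXNRD1 were at 0.087, -0.026 and 0.055. By limma after rescaling each library to an equal total SOD1 was at 0.021 and TXNRD1 at 0.055, and TXNRD1 was at 0.0011 on log2(FPKM + 1) and 0.0054 on log2(FPKM + 0.1). The cause was not tested.

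Deviations of same-numbered libraries correlated at -0.28 to 0.32. The labels do not say whether a shared number pairs libraries, and correlations of expression cannot decide it. With the replicate block 0 genes were called and 433 had an unadjusted p under 0.05, with CAT at 0.36 (p 0.0533 by edgeR).

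SOD2 with PRDX3 passed the threshold on log2(FPKM + 1), at 0.75. SOD1 with CAT turned from -0.10 to 0.19 by rho, 0.25 without the 2 outer libraries, 0.68 and 0.83 (rho) within Laiwu, and 0.26 and 0.51 (rho) without Yorkshire 5. PRDX1 with PRDX2 turned from 0.17 to -0.014 by rho, -0.84 and -0.71 (rho) within Laiwu, and -0.29 and -0.29 (rho) without Yorkshire 5. Leaving out Yorkshire 5 for relations was chosen after seeing the data.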
